A study of Mus musculus with 3 samples.

Results

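The guanylate-binding proteins of the mouse were followed through 3 libraries of polyadenylated RNA from bone-marrow-derived macrophages, phagocytes grown in culture from marrow. The members are the 10 genes Gbp2, Gbp2b, Gbp3, Gbp4, Gbp5, Gbp6, Gbp7, Gbp8, Gbp9 and Gbp10, taken by gene symbol, and all 10 were found among the 55536 mouse genes quantified, each under 1 gene identifier. The only group holds macrophages of the inbred strain C57BL/6J, exposed to 100 ng/mL of a bacterial stimulus for 180 min, as biological replicates 1, 2 and 3. One label names the stimulus as lipid A, the part of lipopolysaccharide that binds Toll-like receptor 4, and another names lipoprotein A and types it as a protein. All 3 libraries carry the same donor identifier, sex and age were not recorded, and no unstimulated group was analysed here, so the values are levels within stimulated cells and no response to the stimulus was measured. Because the labels do not tie the replicates to separate animals, the spread between them may be technical.

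Guanylate-binding proteins are large GTPases related to the dynamins. In macrophages their genes are well-known targets of interferons, through the receptors and interferon regulatory factors, and Toll-like receptor 4 reaches the same route through interferon beta. The proteins assemble on the vacuoles of intracellular parasites and on the surface of bacteria in the cytosol, where they help to break membranes and to expose lipopolysaccharide to the inflammatory caspases.

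Depth, in expected counts summed over mouse genes, was 24450338 in replicate 1, 34641026 in replicate 2 and 60595742 in replicate 3, where an expected count is an estimated number of fragments and need not be whole. Of these, the 10 genes took 177879, 217195 and 313106 counts, which is 0.728%, 0.627% and 0.517%. All 10 macrophage markers were at 1 TPM or more in every replicate (TPM is an abundance scaled for transcript length and library size). Markers of T and natural killer, B, dendritic and stromal or endothelial cells reached that level for 1 gene of each list: Lck of 10, Cd79b of 5, Ccr7 of 6 and Kdr of 8. Of 10 neutrophil markers, 4 reached it (S100a8, S100a9, Ngp and Mmp8), Ly6g was at 0 in all 3 replicates, and the list summed to 93.5, 729 and 55.6 TPM, highest in replicate 2.

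Gbp5, Gbp2 and Gbp3 carried most of the family's RNA, and Gbp2b carried almost none. Together the 10 genes stood at 3934, 3293 and 2924 TPM in the 3 replicates, a mean of 3383 ± 511 TPM (SD, n = 3). In bulk RNA a level reflects both the number of cells that hold a transcript and the amount in each, and these cannot be told apart. Among the 10 genes, 9 were at 1 TPM or more in all 3 replicates, the rule used here for a detected gene, against 18.1% of all 55536 genes. The exception was Gbp2b. All 10 members are annotated as protein coding, while the 55536 genes include noncoding genes and pseudogenes. Of the 10026 detected genes, 9388 were protein coding.

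Gbp5, a member with a carboxy-terminal CaaX prenylation motif that is known to promote inflammasome activation, had 1298, 1346 and 1214 TPM. The 3 replicates lie close together, and its mean of 1286 ± 67.1 TPM held rank 92 when set among the 9388 detected protein-coding genes. Gbp2, also prenylated and known from the vacuoles of Toxoplasma gondii, had 1138, 794 and 862 TPM, highest in replicate 1. Gbp3 had 450.4, 345 and 297 TPM, also highest in replicate 1. Gbp7, known for a part in assembling the phagocyte oxidase, had 138, 126 and 99.1 TPM, the narrowest relative range after Gbp5.

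**Figure D1:**
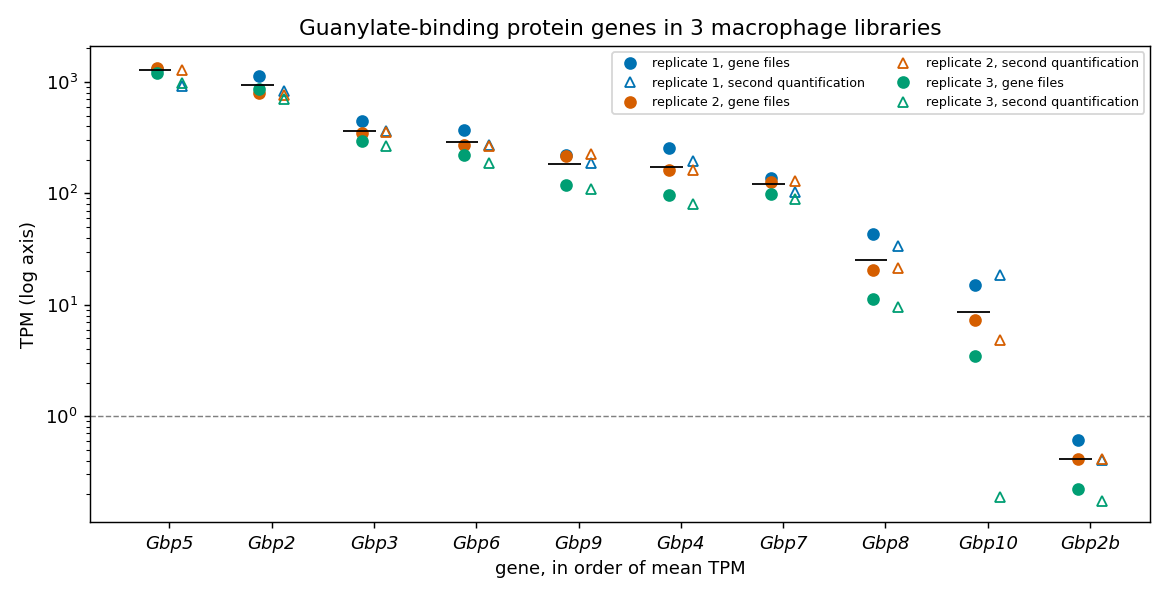
TPM (log axis) of the 10 genes in order of mean level. Filled circles are the gene quantification and open triangles the second quantification, coloured by replicate, black bars are means of the gene quantification, and the dashed line marks 1 TPM. The genes span from 1286 TPM for Gbp5 to 0.413 TPM for Gbp2b, and Gbp10 in replicate 3 falls to 0.19 TPM in the second quantification.

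Gbp2b, formerly named Gbp1 and known for differing in inducibility between inbred strains, had 0.61, 0.41 and 0.22 TPM. These values rest on 25, 24 and 22 expected counts, with an exact Poisson 95% interval of 16.2 to 36.9 for replicate 1 that covers counting error only. The gene was low in every replicate although it lies between highly expressed neighbours of its own family.

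The chromosome 5 genes were lower than the leading chromosome 3 genes. Gbp6, known from work on resistance to Listeria and mycobacteria, had 372, 275 and 222 TPM. Gbp9 had 221, 216 and 119 TPM and Gbp4 had 257, 163 and 97.0 TPM, both lowest in replicate 3. Gbp8 had 43.2, 20.6 and 11.4 TPM, and Gbp10, the near copy of Gbp6, had 15.1, 7.29 and 3.44 TPM. In both Gbp8 and Gbp10, replicate 1 was higher than the other two replicates summed.

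Ranked by mean level the order was Gbp5, Gbp2, Gbp3, Gbp6, Gbp9, Gbp4, Gbp7, Gbp8, Gbp10 and Gbp2b. Of the 9 pairs of neighbours in this order, 7 had the first gene higher in all 3 replicates with a mean log2 ratio above its SD. The pairs that did not were Gbp9 over Gbp4, at a log2 ratio of 0.16 ± 0.33, and Gbp4 over Gbp7, at 0.41 ± 0.47 (SD, n = 3, on log2 of TPM + 0.1). These neighbours do not differ beyond their spread. The widest steps were Gbp10 over Gbp2b, at 15.1-fold, and Gbp7 over Gbp8, at 5.52-fold. The size of the first depends on the setting: its log2 ratio was 3.92 here, 2.85 in the second quantification described below, 2.58 with 1 TPM added in place of 0.1 and 2.24 on unscaled expected counts, where it was no longer the widest. In the second quantification Gbp8 over Gbp10, at 2.68, exceeded Gbp7 over Gbp8, at 2.48. Flipping signs over 3 replicates in an exact permutation test, two-sided, gives no p below 0.25, so no pair could pass a threshold of 0.05, and the smallest adjusted p over the 9 pairs was 0.321.

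The genes lie in 2 clusters of 5. On chromosome 3, plus strand, mm10, Gbp5 lies at chr3:142493978-142522344, Gbp7 at chr3:142530342-142550149, Gbp3 at chr3:142560026-142573209, Gbp2b at chr3:142594847-142619179 and Gbp2 at chr3:142620602-142638008. On chromosome 5, minus strand, Gbp8 lies at chr5:105014150-105139540, Gbp9 at chr5:105077630-105139539, Gbp4 at chr5:105115767-105139586, Gbp10 at chr5:105215699-105239533 and Gbp6 at chr5:105270702-105293698. The annotated spans of Gbp8, Gbp9 and Gbp4 overlap on the same strand, so fragments in shared exons could be split between them by the authors' counting. The chromosome 3 genes made up 76.9%, 79.3% and 84.5% of the summed TPM, a mean of 80.3 ± 3.90%, and the chromosome 5 genes made up 19.7 ± 3.90% (SD, n = 3). Every replicate gave the chromosome 3 cluster the larger part, and Gbp5 alone held 38.5 ± 4.75% and Gbp2 27.5 ± 2.95%.

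RefSeq promoter windows (GRCm38.p6, from 250 bases before to 50 after a gene start) were available for the 5 chromosome 3 genes. Each gene had a window holding the core of the interferon-stimulated response element (ISRE), the DNA word bound by interferon regulatory factors. It was searched as GAAANNGAAA on both strands, N being any base, and 3.43% of all 32817 mouse promoter windows hold it. The stretches of 60 bases around it, all on the plus strand, are shown because the highest and the lowest gene of the family both carry the word. The capitals mark the match, which on the strand printed here is the reverse complement of that word.
Gbp5, chr3:142496744-142496803: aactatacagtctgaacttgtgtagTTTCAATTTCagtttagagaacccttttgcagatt
Gbp2, chr3:142620579-142620638: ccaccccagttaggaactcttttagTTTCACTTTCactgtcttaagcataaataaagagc
Gbp3, chr3:142559980-142560039: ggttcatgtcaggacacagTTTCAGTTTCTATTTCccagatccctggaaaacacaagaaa
Gbp7, chr3:142530258-142530317: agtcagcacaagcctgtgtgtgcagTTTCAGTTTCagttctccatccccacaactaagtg
Gbp2b, chr3:142594685-142594744: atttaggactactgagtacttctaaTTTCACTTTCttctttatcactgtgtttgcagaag

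The match starts 165 bases before the RefSeq start of Gbp5, 59 before that of Gbp2, 53 before that of Gbp7 and 137 before that of Gbp2b. Gbp3 has 2 overlapping matches, at 45 and 39 bases before its start, in 1 of its 2 windows. RefSeq starts differ from the GENCODE M21 spans given above. The whole Gbp5 window, chr3:142496684-142496983, and the Gbp2 match, chr3:142620604-142620613, lie inside the spans of these genes. The matches of Gbp7, Gbp3 and Gbp2b lie before theirs. Gbp2 and Gbp2b hold the same 10 letters, TTTCACTTTC, while their levels were 931 ± 182 and 0.413 ± 0.195 TPM (SD, n = 3). The core of the gamma-activated site, searched as TTCNNNGAA, was matched at 2 places each in the windows of Gbp5 and Gbp7, and in 8.29% of all windows. An NF-kappaB core, searched as GGGANTTNCC, was matched in the window of Gbp5, 77 bases before its start, and in 1.20% of all windows. No match of these 3 words overlapped a match of another. A match describes letters and is not a measured binding site.

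The chromosome 5 genes resemble each other closely in sequence, and most chromosome 3 genes do not. The coding sequences of the 10 pairs on chromosome 5 were 89.6% to 98.4% identical. Of the 10 pairs on chromosome 3, Gbp2 with Gbp2b (82.5%) and Gbp3 with Gbp7 (78.3%) were the nearest, and the other 8 pairs were 61.2% to 68.3% identical. The 25 pairs on different chromosomes were 60.4% to 74.7% identical, and the top of that range is Gbp7 with Gbp8. Gbp6 and Gbp10 were the nearest pair, with 1803 of 1833 aligned bases identical. The 60 coding bases from 1567 to 1626 (GENCODE M21, read along the minus strand of chromosome 5) are where these coding sequences differ most. The transcripts also hold bases outside the coding sequence, which are not shown. In the gene quantification most of the TPM of Gbp10 lay on another transcript, Gbp10-202, described below. Capitals mark the 9 differing positions.
Gbp6, transcript Gbp6-201: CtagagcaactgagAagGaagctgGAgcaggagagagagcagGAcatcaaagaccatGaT
Gbp10, transcript Gbp10-201: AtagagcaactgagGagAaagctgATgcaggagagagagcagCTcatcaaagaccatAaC

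Of the 31-base words in the transcripts of Gbp10, 89.8% also occur in transcripts of another gene, and the share was 74.2% for Gbp6, 31.1% for Gbp8 and 18.3% for Gbp9. It was 14.7% for Gbp7 and 14.3% for Gbp4, and between 3.05% and 5.64% for Gbp5, Gbp2b, Gbp2 and Gbp3. Genes outside the family list that held over 10% of a member's words were chosen for a look after the sequences were compared. Gm43302, a protein-coding gene model that overlaps Gbp6 and Gbp10 on their strand, holds 76.7% of the words of Gbp10 and 67.8% of those of Gbp6, and had 0.34, 0.37 and 0.19 TPM. Gm43802, a processed pseudogene inside Gbp7, holds 10.8% of the words of Gbp7 and had 17.2, 0 and 3.63 TPM. Gbp11, annotated as a polymorphic pseudogene on chromosome 5, holds 15.5% of the words of Gbp8 and had 19.6, 5.46 and 4.36 TPM. The pseudogene Gbp2-ps was listed at 0 in all 3 replicates.

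The deposited files hold a second quantification, made directly from the reads and an index, and it gave the same order of mean levels. It placed Gbp5 at 921, 1270 and 988 TPM and Gbp2 at 825, 763 and 709 TPM, and 8 of 10 genes were detected. Gbp10 was the gene lost, at 18.6, 4.80 and 0.19 TPM in the second quantification. There too 7 pairs of neighbours had the first gene higher in all 3 replicates, and the chromosome 3 share was 79.6 ± 4.15% (SD, n = 3). The 10 genes summed to 2918.5, 3196 and 2440 TPM in the second quantification, highest in replicate 2, as was the chromosome 3 sum. In the gene quantification both sums were highest in replicate 1.

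Between the gene quantification and the second one, Gbp10 differed by log2 ratios of -0.30, 0.59 and 3.61 in replicates 1, 2 and 3. The sign is not shared by the replicates, and the mean of 1.30 ± 2.05 (SD, n = 3) is a fold of 2.47. Gbp5 differed by 0.49, 0.08 and 0.30, a mean of 0.29 ± 0.21 or 1.22-fold, while the median over all 11346 genes tested was 0.22, so that Gbp5 lay 0.07 above it. In limma's moderated test with a trend and Benjamini-Hochberg adjustment, 2 of the 9 members tested passed 0.05, Gbp10 at an adjusted p of 6.7e-21 and Gbp5 at 0.0498, against 23.2% of all genes tested. With a difference of 1.5-fold or more as well, 1 member passed, Gbp10, against 11.6% of all genes. That fit took its estimate of spread from genes of like level and gave the gene's own spread no weight: with a robust prior, chosen after seeing the data, Gbp10 had an adjusted p of 0.467, and without replicate 3 its mean log2 ratio was 0.15 at an adjusted p of 0.759, while over all alternatives run its adjusted p ranged from 1.36e-34 to 0.759. The adjusted p of Gbp5 ranged from 7.45e-05, without replicate 2, to 0.729, without replicate 3. The other 7 members tested lay between 0.10 and 0.27 in mean log2 ratio and did not pass. Leaving out one library moved the count of members past the threshold in limma, to 1 without replicate 1, to 8 without replicate 2 and to 0 without replicate 3, where 0 passed an unadjusted p of 0.05. How many of all genes passed in these fits was not counted, so the counts are not read as a trait of the members.

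**Figure D2:**
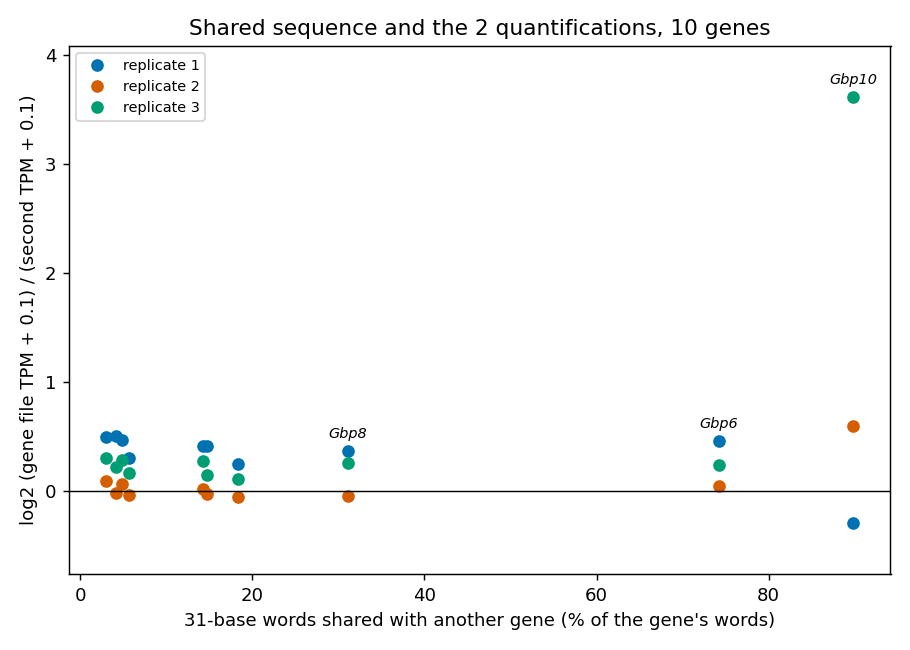
Share of a gene's 31-base words found in another gene (x axis, percent) against the log2 ratio of gene quantification to second quantification (y axis), 1 point per gene and replicate. Gbp10, at 89.8% shared words, spreads from -0.30 to 3.61, while Gbp6, at 74.2%, lies with the genes that share little.

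The fragments in doubt were few beside the level of Gbp6. The posterior SD deposited by the authors, their measure of how uncertain the assignment of fragments is, was 19.4, 20.2 and 15.5 counts for Gbp10, or 12.9%, 16.1% and 20.2% of its posterior mean count. For Gbp6 it was at most 0.126% of the count, and for Gbp2, Gbp5 and Gbp2b it was 0. Summed over Gbp6 and Gbp10 the gene quantification gave 387, 282 and 225 TPM and the second quantification 290, 271 and 188 TPM. In replicate 3 the second quantification listed Gbp10 at 0.19 TPM and Gm43302 at 0.217 TPM. In replicate 1 Gm43802 was at 17.2 TPM in the gene quantification and at 45.6 TPM in the second.

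The transcripts that carried the RNA differed between the clusters. In Gbp2, Gbp3, Gbp7 and Gbp2b transcripts annotated as protein coding held over 99% of the TPM, and in Gbp5 they held 92.9 ± 2.28% (SD, n = 3), all of it Gbp5-201. In the chromosome 5 genes the share was 67.2 ± 10.7% for Gbp9, 51.7 ± 9.09% for Gbp6, 39.3 ± 6.71% for Gbp4, 33.8 ± 11.5% for Gbp8 and 7.39 ± 3.44% for Gbp10. In the second quantification the share of Gbp10 was 4.87%, 18.7% and 100% in replicates 1, 2 and 3, far from the gene quantification in replicate 3. In the gene quantification every chromosome 5 gene stood below every chromosome 3 gene in mean share.

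The other RNA of the chromosome 5 genes fell into different annotated classes. Gbp4-202, annotated as a target of nonsense-mediated decay (the pathway that removes messages with an early stop), held 59.3 ± 6.34% of the TPM of Gbp4 (SD, n = 3). Gbp6-203, of the same class, held 39.3 ± 6.12% for Gbp6. Gbp9-203, a transcript that retains an intron, held 32.3 ± 10.7% for Gbp9. The processed transcript Gbp8-204 held 56.4 ± 9.16% for Gbp8, where the second quantification gave 32.8 ± 11.4%. Gbp10-202, a short retained-intron transcript, held 92.6 ± 3.44% for Gbp10 in the gene quantification, where the second quantification gave 95.1%, 81.3% and 0% in replicates 1, 2 and 3. Of its 31-base words, 93.5% occur in other genes.

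Counting only transcripts annotated as protein coding, an alternative chosen after seeing the data, left the order of the leading 4 genes as it was. Gbp5 then had 1171, 1264 and 1146 TPM, and Gbp6 had 192, 117 and 135 TPM. Gbp4 had 89.4, 58.8 and 45.6 TPM, below Gbp7 in every replicate, so the pair that overlapped on whole-gene levels was apart on coding transcripts. Most of this TPM of Gbp4 lay on Gbp4-203, a transcript of 709 bases, at a mean of 46.6 TPM. Gbp4-201, of 4538 bases and with the longest coding sequence of the gene, had a mean of 11.4 TPM. Gbp10 had 0.95, 0.82 and 0.16 TPM, under 1 TPM in every replicate and close to Gbp2b.

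**Figure D3:**
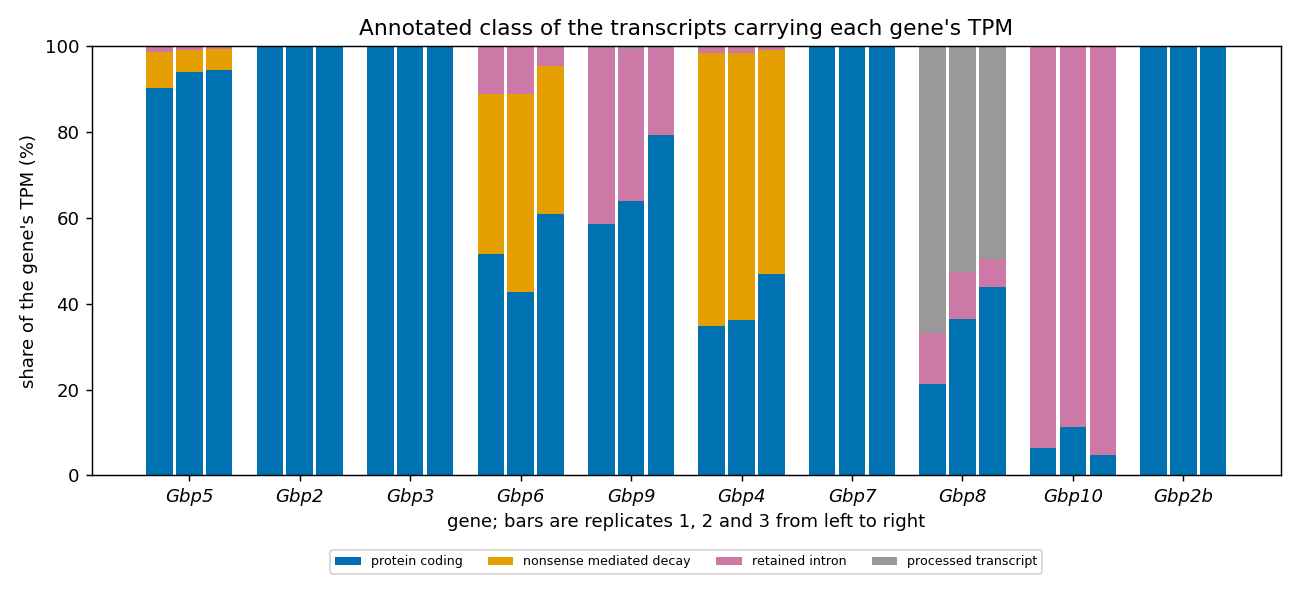
Share of each gene's TPM (percent, from 0) by annotated transcript class, with 3 bars per gene for replicates 1, 2 and 3 of the gene quantification. Blue protein-coding shares are over 90% in the chromosome 3 genes and run from 7.39% for Gbp10 to 67.2% for Gbp9 as means in the chromosome 5 genes.

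The chromosome 5 genes varied more between replicates at the median, although the ranges of the clusters overlap. The log2 ratio of replicate 3 to replicate 1 was -1.41 at the median of the chromosome 5 genes and -0.48 at that of the chromosome 3 genes, while over the 10026 detected genes the median was -0.01. In the second quantification these medians were -1.27, -0.22 and 0.06. Single genes ran from -0.10 for Gbp5 to -2.10 for Gbp10 in the gene quantification, and Gbp2b on chromosome 3, at -1.15, lay beyond Gbp9 at -0.90 and Gbp6 at -0.74. These ratios are on whole-gene levels, and cluster medians on coding transcripts alone were not computed. From replicate 1 to replicate 3, Gbp8 went from 43.2 to 11.4 TPM as a whole gene and from 9.17 to 4.98 TPM on coding transcripts. Gbp10 went from 15.1 to 3.44 TPM and from 0.95 to 0.16 TPM in the same way. Of the 10 members, 8 were highest in replicate 1 and lowest in replicate 3, against 13.8% of detected genes. The 8 include Gbp2b, which was not detected. In the second quantification 6 were, against 9.74% of genes at 1 TPM or more there. The 6 include Gbp10, which was not detected there. The pattern over replicates was read from the values themselves and has no test.

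**Figure D4:**
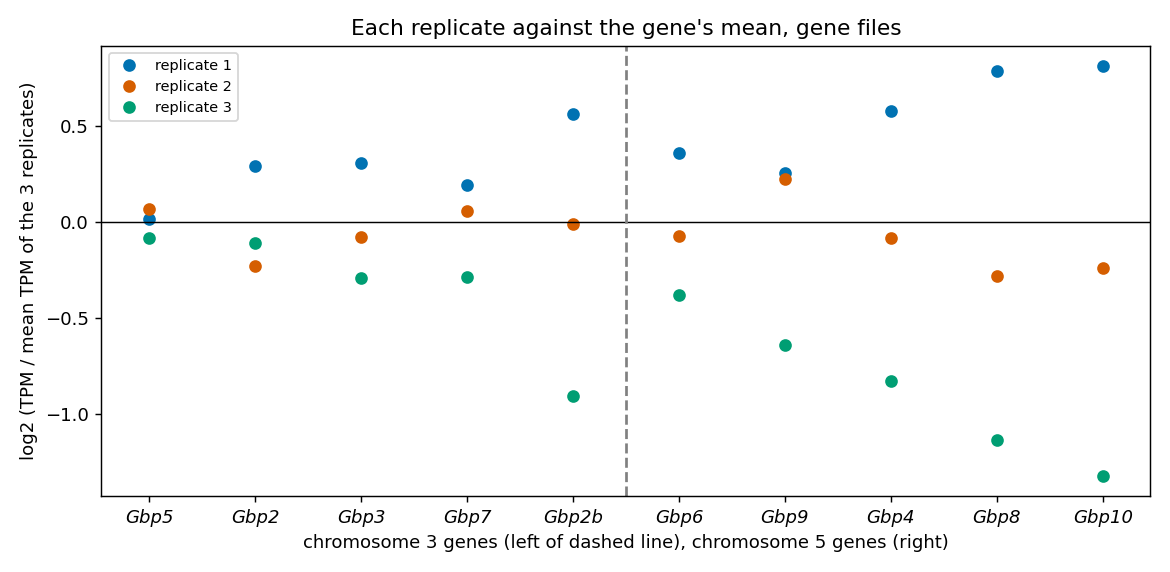
Log2 of each replicate's TPM over the gene's mean of 3 replicates, chromosome 3 genes left and chromosome 5 genes right of the dashed line. Replicate 3 (green) is lowest in 9 of the 10 genes, and replicate 1 (blue) is highest in 9, with Gbp5 nearly level. Shares over all genes were counted only for both traits together, at 13.8% of detected genes. In the second quantification, not drawn here, replicate 3 was lowest in 9, and replicate 1 was highest in 6 and replicate 2 in 4.

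The neutrophil marker sum was highest in replicate 2, at 729 TPM, and between the other two replicates it was higher in replicate 1, at 93.5 TPM, than in replicate 3, at 55.6 TPM, the same direction as the members. Its part in their levels was not tested. Leaving replicate 2 out, an alternative chosen after seeing the data, replicate 1 was above replicate 3 in 10 of 10 members, the undetected Gbp2b included, against 51.4% of detected genes. In the second quantification replicate 1 was above replicate 3 in 9 of 10 members, and the share over all genes was not counted there. The share of retained-intron transcripts also moved with the library. It was lowest in replicate 3 in all 5 members that have such transcripts and stood at 10 TPM or more, for example 41.0%, 35.6% and 20.4% of Gbp9 and 11.2%, 11.1% and 4.65% of Gbp6. The same held for 58.6% of the 3376 genes that met these conditions, and in the second quantification for 4 of 4 members, against 67.7% of 3174 genes. The part of this library difference in the levels of the members was not tested.

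All 10 members differed between replicates beyond counting error, in a chi-square test of equal rates on rounded expected counts with TMM library sizes and Benjamini-Hochberg adjustment over 11611 genes, and so did 77.5% of those genes. The call was thus shared by most genes at these depths. The largest adjusted p among the members was 0.00269, for Gbp2b, and its call was lost without replicate 1 (adjusted p of 0.0902) and without replicate 3 (0.16). The biological coefficient of variation from edgeR, the relative spread beyond counting error, was 43.0% for Gbp10, 35.3% for Gbp8, 34.8% for Gbp2b and 31.03% for Gbp4. It was 17.8% for Gbp5, against a common value of 23.1% over all genes tested. The median was 22.8% over the 10 members and 21.3% over all genes tested. The edgeR value of a gene also draws on other genes, so it is not that gene's measured spread alone. After TMM scaling the highest replicate of Gbp5 was 1.07-fold above its lowest, and that of Gbp8 was 3.68-fold.

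Around the family, most genes of the pathway that feeds it were detected. Of 18 genes of interferon receptors and signalling, 17 were detected, with a list median of 108 ± 4.71 TPM (SD, n = 3). Irf1, the interferon regulatory factor known to drive guanylate-binding protein genes, was the highest at 1304, 1174 and 1068 TPM. Ifng, the type II interferon itself, was the only one not detected, at 0, 1.83 and 0.03 TPM. The family's own list median was 179 ± 65.8 TPM, and the median detected gene of the libraries stood at 14.6 TPM.

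The immunity-related GTPases, which act on the same vacuoles, were detected in 9 of 9 cases with a list median of 446 ± 44.3 TPM. They ran from Tgtp1, at 89.1, 51.7 and 46.8 TPM, to Irgm1, a regulator of the others, at 1129, 1196 and 1095 TPM. Of these 9 genes, 2 were highest in replicate 1 and lowest in replicate 3. All 14 genes of the ATG8 conjugation list were detected, at a list median of 43.4 ± 7.50 TPM, with the ubiquitin receptor gene Sqstm1 highest at 1133, 1662 and 1477 TPM and the ubiquitin ligase gene Traf6 lowest at 10.2, 14.2 and 12.4 TPM. The 6 genes of CaaX prenylation and the processing that follows it were all detected but low, at a list median of 10.7 ± 1.19 TPM. They ran from Fntb at 2.30, 1.96 and 1.81 TPM to Zmpste24 at 18.9, 26.4 and 23.2 TPM.

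Downstream, all 10 pyroptosis and inflammasome genes were detected, at a list median of 162 ± 33.3 TPM. Il1b, the interleukin 1 beta gene, was highest and uneven, at 661, 2399 and 544 TPM, with replicate 2 far above the others. Nlrc4, a sensor partner for bacterial flagellin and secretion systems, was lowest at 1.66, 2.80 and 2.08 TPM. Of 14 related large GTPases, 11 were detected, led by the antiviral Mx1 at 1580, 1418 and 923 TPM, and Dnm1, Dnm3 and Atl1 were under 1 TPM. Gbp5, at its mean of 1286 ± 67.1 TPM, stood beside Mx1 at 1307 ± 342 TPM (SD, n = 3).

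**Figure D5:**
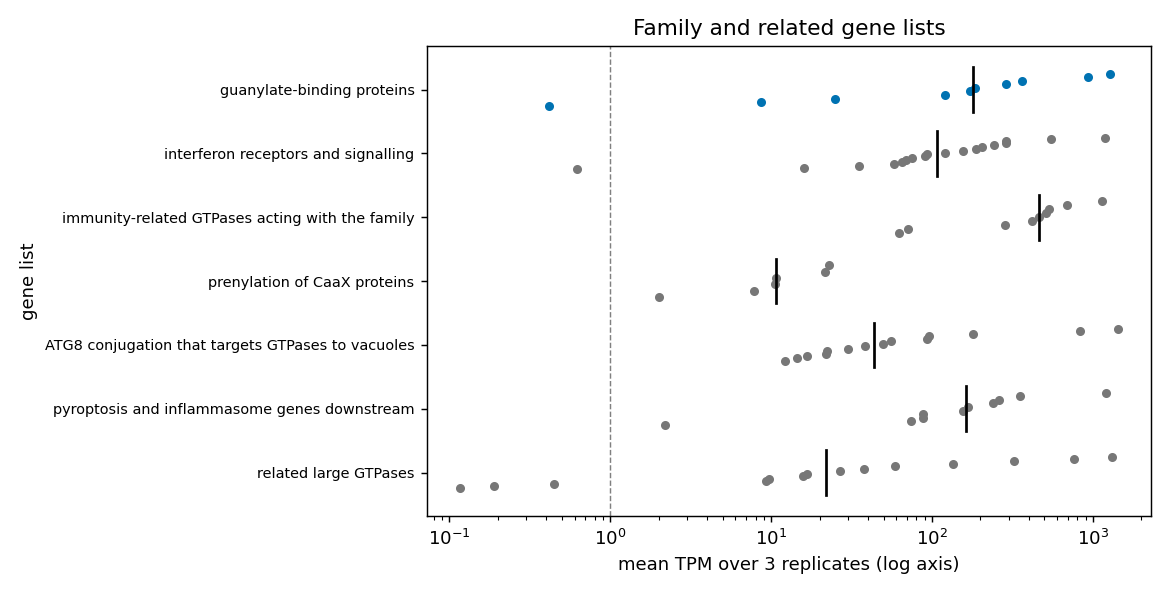
Mean TPM over 3 replicates (log axis) of every gene of the family (blue) and of 6 related gene lists (grey), each list spread vertically by level, with black bars at the list median and a dashed line at 1 TPM. The family runs down to Gbp2b at 0.413 TPM, while the immunity-related GTPases all lie above 60 TPM.

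The genes nearest in level to Gbp5 over the 3 replicates, by the largest absolute log2 difference among the detected protein-coding genes outside the family, were Ms4a7 (0.10), Srgn (0.16), Cd63 (0.16), Hspa8 (0.18) and Myl6 (0.19). The nearest to the summed family were Tpt1 (0.19), Itm2b (0.20), Ifit2 (0.21), Fabp5 (0.23) and Ctss (0.30). Ifit2, an interferon-induced gene, had 3586, 3818 and 2631 TPM.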

How the data were processed

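Per the text files deposited beside the tables, gene and transcript values come from a transcriptome alignment (mm10, GENCODE M21), and the second quantification from reads and an index. Strandedness and the names and versions of the aligner and quantifiers were not given in the sources used here. The file headers show that the authors' tables hold expected counts, TPM, FPKM, the percent of a gene's abundance per transcript, a posterior SD of each count, and estimated counts and TPM of the second quantification. TPM was used as deposited, and the second quantification was summed per gene. Expected counts were rounded to whole numbers for the chi-square test and for edgeR 4.0.16 (default low-count filter). limma 3.58.1 used log2 ratios with 0.1 TPM added, over genes with a mean of at least 1 TPM. The chi-square test and limma were also run on simulated data, whose outcome is not given here. The simulated counts held counting error and planted changes only, while most genes here differed beyond counting error. Neither run is used as support for a call. Coding sequences and 31-base words came from GENCODE M21, in place of proteins, which were not used here. All members are named, with the highest and lowest gene of each list, undetected genes, relatives by symbol and the 5 genes nearest in level to Gbp5 and to the sum. The members and lists were chosen with earlier results of these data known. In the gene quantification Gbp2b alone among the members was not detected. Depth rose from 24450338 counts in replicate 1 to 60595742 in replicate 3. Between these replicates the counts of Gbp10 fell from 151 to 75.0 and those of Gbp2b from 25 to 22.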

Additional observations from a re-analysis of the deposited data

How the results depend on the processing

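The number of genes detected (8 to 10), the chromosome 3 share and the number of neighbour pairs apart beyond their spread (6 to 8) stayed within their spread or within 1.5 times under every alternative run. Without one replicate each in turn, the count detected was 9, the chromosome 3 share 78.1% to 81.9%, the pairs 7 to 8, the summed level 3108 to 3613 TPM and the members that differ between replicates 9 to 10, Gbp2b being lost without replicate 1 or 3 (adjusted p 0.0902 and 0.16). The summed level was 2852 TPM in the second quantification and 2232 in FPKM. Unscaled expected counts, which leave length in, gave a log2 ratio of -0.069 for Gbp3 over Gbp6 and of -0.31 for Gbp4 over Gbp7, and moved 6 of the 7 remaining pairs by more than their spread, the exception being Gbp2 over Gbp3.

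The count of members that differ between the quantifications depended on the setting. It was 1 with a pseudocount of 1 or 0.01 TPM or a robust limma prior, 4 on counts scaled to their own totals, and 0 in limma without trend or with no filter on low values, where 0 passed an unadjusted p of 0.05. Of all 11346 genes tested, 2634 passed in the main fit, 2874 with the robust prior and 1385 without trend. No count over all genes was made for the other settings, those without one replicate included, nor at 1.5-fold under any alternative. On scaled counts the log2 ratios of Gbp8 and Gbp9 turned to -0.29 and -0.045. The count at 1.5-fold or more was 0 with the robust prior, the prior without trend, no filter and scaled counts. Leaving out one replicate gave 0 to 8 members, with 8 without replicate 2 and 0 without replicate 3, and 0 to 1 at 1.5-fold. The robust and untrended priors were chosen after seeing the data.

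No paired comparison of groups was possible because there is 1 group only. The ratios between genes and between quantifications were paired within each library. Low counts limit Gbp2b, with 22 to 25 counts, and Gbp10, with 75.0 to 151 counts, most.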
